A study of Mus musculus with 8 samples.

Results

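Chemokines and their receptors were followed in C3H10T1/2 cells, an established mesenchymal line of mouse embryo origin, after treatment with sphingosine 1-phosphate (S1P). The genes were taken by symbol, as every row of the deposited count table whose symbol starts with Ccl, Cxcl, Cx3cl, Ccr, Cxcr or Cx3cr and a digit. This gave 35 of the 18306 genes in the table, 28 ligands and 7 receptors. Each of them had a count in at least 1 library, as had every row of the table, so a gene without any count has no row. Enough counts for the test were present for 20 of the 35 (19 ligands and 1 receptor), and the other 15 are given by their counts alone.

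Each library is RNA of cells that spent 24 h in basal medium without serum and then 24 h with either 5 µM S1P or its vehicle, fatty acid-free albumin. There were 4 vehicle libraries, replicates 1 to 4, and 4 S1P libraries, replicates 5 to 8, all of this 1 cell line. The labels are silent on whether libraries of 1 group are independent cultures. The p-values therefore rest on the spread among these samples, and that spread may be technical.

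Chemokines are small secreted proteins that guide migrating cells. Their families are named for the spacing of conserved cysteines, side by side in CC ligands and separated by other residues in CXC and CX3C ligands. They bind G protein-coupled receptors that signal mainly through Gi proteins, and S1P acts through receptors of the same large superfamily. Fibroblasts and mesenchymal stromal cells are known sources of ligands that draw in neutrophils and monocytes, while most of the receptors are typical of leukocytes.

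Most of the 35 genes lie in a few tandem clusters, and their promoters were searched for letters that neighbours share or do not share. RefSeq promoter windows (build GRCm38.p6) were found for 24 of the 35 genes, in 27 windows, and none was found for Ccl2, Ccl4, Ccl5, Ccl7, Ccl11, Cxcl5, Cxcl11, Cxcl16, Cxcl17, Ccr7 and Ccr10. The 250 bases before the annotated start were searched on both strands for the κB consensus, the site bound by NF-kB factors, and for GAAANNGAAA, the core of the interferon-stimulated response element. Overlapping matches were counted once. The κB consensus occurred in 7 of the 27 windows, those of Cxcl1, Cxcl2, Cxcl3, Cxcl10, Ccl1, Ccl9 and Ccl20, and in 7.25% of the 32851 windows of all genes. GAAANNGAAA occurred in the window of Cxcl10 only, and in 2.98% of all windows. The windows of Cxcl15, Cxcl9, Ccl3, Ccl6 and Ccl8, each in a cluster with one of these genes, held no match. These matches are descriptions of letters, not measured binding.

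The windows of Cxcl1, Cxcl2 and Cxcl3 are shown because these neighbours carry the same match at similar distances and yet differ widely in level, and those of Cxcl10 and Ccl20 because these genes had different profiles across the libraries. Capitals mark the matches to the κB consensus and, in Cxcl10, also the GAAANNGAAA match, which is the first run of capitals there.
Cxcl1, chr5:90890995-90891244, plus strand: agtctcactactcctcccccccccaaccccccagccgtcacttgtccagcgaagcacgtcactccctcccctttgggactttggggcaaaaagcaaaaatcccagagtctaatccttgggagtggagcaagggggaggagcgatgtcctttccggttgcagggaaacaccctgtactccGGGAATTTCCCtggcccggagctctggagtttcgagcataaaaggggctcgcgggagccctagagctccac
Cxcl2, chr5:90903649-90903898, plus strand: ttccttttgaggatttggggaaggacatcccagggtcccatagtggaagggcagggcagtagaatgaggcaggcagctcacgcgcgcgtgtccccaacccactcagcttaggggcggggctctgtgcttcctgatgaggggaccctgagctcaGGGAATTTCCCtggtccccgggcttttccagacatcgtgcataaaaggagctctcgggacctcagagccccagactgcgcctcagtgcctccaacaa
Cxcl3, chr5:90785851-90786100, plus strand: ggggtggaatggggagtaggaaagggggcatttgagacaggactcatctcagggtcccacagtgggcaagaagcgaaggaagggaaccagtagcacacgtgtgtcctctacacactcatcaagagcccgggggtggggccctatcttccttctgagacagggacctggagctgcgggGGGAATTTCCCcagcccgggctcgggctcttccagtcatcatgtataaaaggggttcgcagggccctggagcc
Cxcl10, chr5:92348890-92349139, minus strand: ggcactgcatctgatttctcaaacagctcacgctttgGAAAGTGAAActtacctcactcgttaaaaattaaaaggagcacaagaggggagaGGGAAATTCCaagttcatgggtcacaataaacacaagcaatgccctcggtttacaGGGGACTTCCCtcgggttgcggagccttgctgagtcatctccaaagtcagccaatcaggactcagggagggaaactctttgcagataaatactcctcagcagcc
Ccl20, chr1:83116516-83116765, plus strand: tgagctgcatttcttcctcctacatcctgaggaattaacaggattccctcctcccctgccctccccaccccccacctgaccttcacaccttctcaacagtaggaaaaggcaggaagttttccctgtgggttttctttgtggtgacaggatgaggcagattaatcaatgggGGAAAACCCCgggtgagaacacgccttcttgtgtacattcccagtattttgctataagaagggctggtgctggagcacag
The match runs from 71 to 61 bases before the start in Cxcl1, from 97 to 87 in Cxcl2 and from 73 to 63 in Cxcl3. In Cxcl10 the κB matches lie 159 to 150 and 104 to 94 bases before the start, and the GAAANNGAAA match 213 to 204 bases before it. In Ccl20 the match lies 80 to 71 bases before the start, on the opposite strand.

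Totals per library were 13750303 to 13761544 counts. A count of 0 therefore allows up to 0.213 to 0.223 CPM (3 counts, per library, counting error only), where CPM is the usual per-library scaling of counts, with TMM composition factors. Vehicle replicate 4 stood apart: its mean chi-square per gene against the other vehicle libraries was 96.2 to 119, against 18.9 to 48.2 among those 3, 10.3 to 32.5 among the S1P libraries and about 1 for sampling noise alone. The mesenchymal identity of the line was visible in all 12 mesenchymal markers, which were all tested and summed to 29076 to 36099.8 CPM in vehicle and 26779.8 to 33651 CPM after S1P. None of the 12 passed the edgeR test, 2 were lower and 2 higher at an unadjusted p under 0.05, and DESeq2 called 2 lower. Fn1, the fibronectin gene, was at 9185 ± 952 CPM in vehicle and 10802 ± 1256 CPM after S1P, and Col1a2, a collagen I chain, at 5319 ± 1285 and 5455 ± 1029.9 CPM (n = 4 each, ± SD). The collagen III gene Col3a1 and the growth factor receptor gene Pdgfra, chosen after their values were seen, had the lowest unadjusted p of those below 0 on the log2 scale, with 5681 ± 275 and 3561 ± 902 CPM for Col3a1 and 1571 ± 563 and 762 ± 285 CPM for Pdgfra (n = 4 each, ± SD; log2 fold change -0.67 and -1.04, edgeR adjusted p = 0.0571 and 0.0853). S100a4 and Twist1, the 2 higher, were also chosen after their values were seen. S100a4 was at 963 ± 239 and 1384 ± 269 CPM, and Twist1 at 17.4 ± 0.966 and 22.3 ± 1.94 CPM (n = 4 each, ± SD). Their log2 fold changes were 0.52 and 0.35 (edgeR adjusted p = 0.145 and 0.114). The part of these shifts in the chemokine results was not tested. Of 20 leukocyte marker symbols, 12 had a row and 1 was tested, and these 12 summed to 2.89 to 6.75 CPM in vehicle and 1.67 to 5.63 CPM after S1P. The pan-leukocyte gene Ptprc had 0 counts in every vehicle library and at most 2 in an S1P library. Lyz2, a lysozyme of myeloid cells, was the tested one, at 3.28 ± 1.87 CPM in vehicle and 2.16 ± 1.71 CPM after S1P (n = 4 each, ± SD). Of 12 endothelial and epithelial symbols 8 had a row, and their sum was 37.7 to 79.8 CPM in vehicle and 19.3 to 46.2 CPM after S1P. Nearly all of it was Tek, an angiopoietin receptor, at 54.8 ± 20.8 and 31.2 ± 12.1 CPM, while the cadherin Cdh1 was at 2.00 ± 0.732 and 1.92 ± 0.311 CPM (n = 4 each, ± SD) and the endothelial genes Pecam1 and Kdr had at most 6 counts in a library.

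The chemokine transcriptome of these cells was dominated by a few ligands. All 35 genes together took 1.06 ± 0.323% of the counts in vehicle and 0.724 ± 0.185% after S1P (n = 4 each, ± SD), and Cxcl5, Ccl2, Cxcl12, Cxcl1 and Ccl7 made up 91.4% to 94.9% of that in each library. Between genes, levels are compared per kilobase of merged GENCODE M21 exons. On that scale the order in vehicle was Cxcl5 (2325 ± 944 CPM per kb), Ccl2 (2021 ± 426), Cxcl1 (647 ± 177), Ccl7 (548 ± 196) and Cxcl12 (225 ± 90.0), each SD with n = 4. Cxcl5 and Ccl2 did not differ beyond their spread, nor did Cxcl1 and Ccl7. After S1P the order on the same scale began with Ccl2 (1655 ± 593 CPM per kb) and Cxcl5 (1133 ± 298), which again lay within their spread, followed by Cxcl1 (442 ± 133), Ccl7 (367 ± 74.0) and Cxcl12 (196 ± 49.7). Cxcl12 has the longest merged exons of the 35 genes (8176 bases), so its place depends on which of its exons are used. The plot of levels by library shows the range from these ligands down to genes near 1 CPM.

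**Figure D1:**
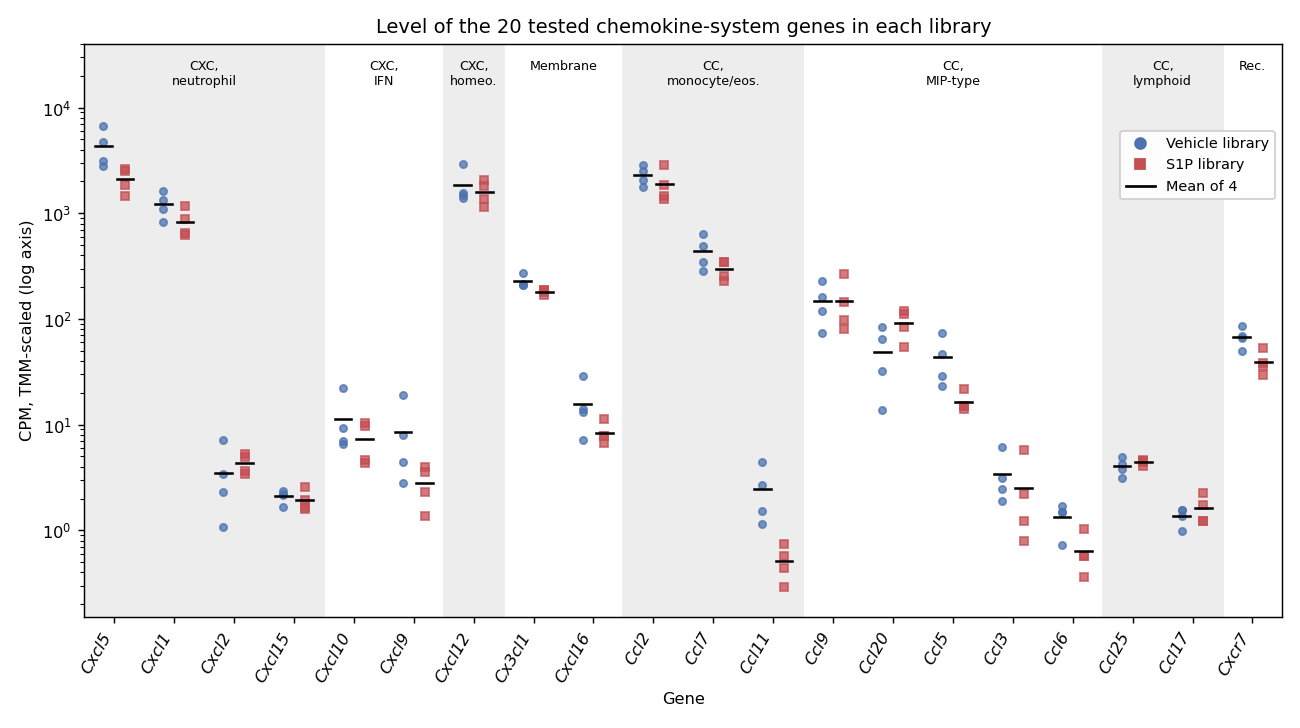
Level of each of the 20 tested genes (log axis, TMM-scaled CPM) in the 4 vehicle libraries (circles) and the 4 S1P libraries (squares), with the group mean as a bar, ordered by role (Rec. marks the receptor Cxcr7). The groups do not overlap for Ccl11, Ccl5, Cxcl5 and Cx3cl1.

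After S1P, 2 of the 20 tested genes fell, the eosinophil attractant Ccl11 and the T cell and monocyte attractant Ccl5, and none rose (edgeR quasi-likelihood test, Benjamini-Hochberg adjusted over all 11844 tested genes). Over all tested genes 2.9% fell, 5.6% rose and 8.5% changed in either direction. DESeq2 gave an adjusted p to 23 of the family and to 13265 genes in all. It called 6 of these 23 lower, among them Ccl8, which is not 1 of the 20, and none higher. Over its 13265 genes the shares were 6.01% and 7.09%. The limma-voom test called Ccl11 and Cxcr7 lower and none higher of the 20, and 340 (2.87%) lower and 709 higher of all 11844 tested genes. Before adjustment, 9 of the 20 were lower at p under 0.05 and 0 were higher, against 11.7% and 13.2% of all tested genes. The log2 fold change (S1P minus vehicle throughout) was negative for 15 of the 20 and for 53.9% of all tested genes, with a median of -0.50 for the 20 and -0.04 for all. In 4 of the 20, Ccl11, Ccl5, Cxcl5 and Cx3cl1, every S1P library was below every vehicle library, which held for 7.21% of all tested genes. In none of the 20 was every S1P library above every vehicle library, against 11.9% of all tested genes. These counts describe the 20 genes that passed the count filter and not all 35. Ccl11 passed it through its vehicle libraries alone, and Ccl6 reached the filter's cutoff in 4 vehicle libraries and 1 S1P library. Neither would have passed by its S1P libraries. RNA was taken from whole cultures, so fewer cells making a transcript and less transcript per cell cannot be told apart.

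**Figure D2:**
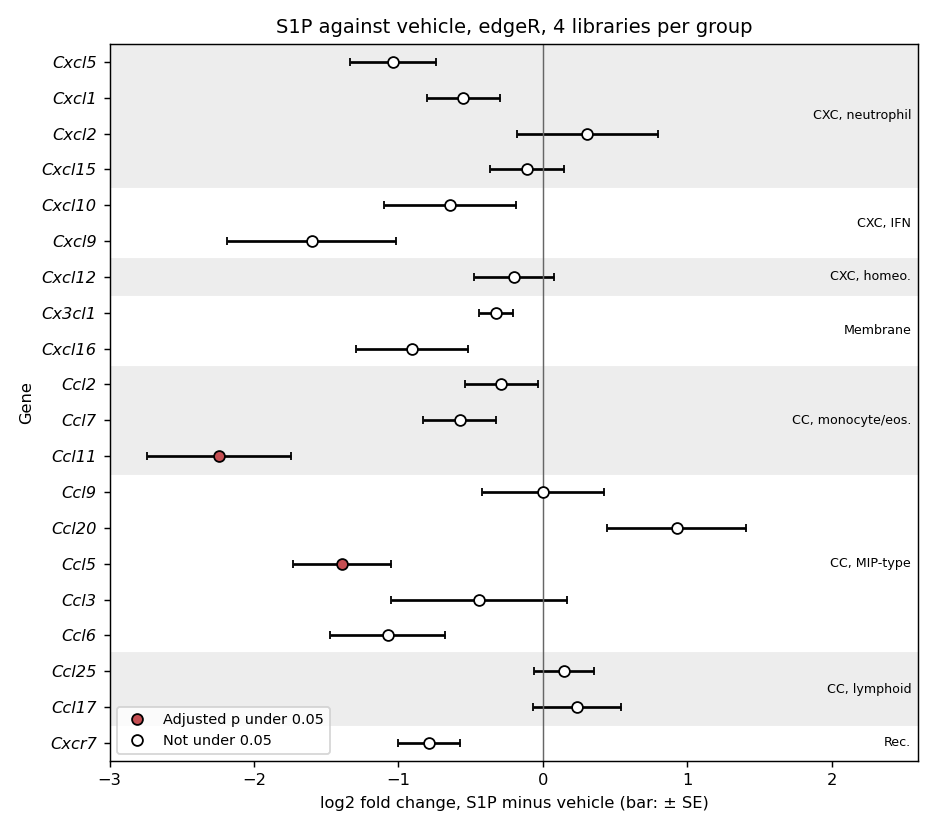
Log2 fold change of the 20 tested genes, S1P minus vehicle, with its SE as a bar, ordered by role and filled where the adjusted p was under 0.05 (edgeR, 4 libraries per group). The filled points are Ccl11 at -2.24 and Ccl5 at -1.39, and the highest value is that of Ccl20 at 0.93.

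Neutrophil-attracting CXC ligands act through the receptor Cxcr2. Of 4 tested, none passed the edgeR test, 1 (Cxcl5) was lower at an unadjusted p under 0.05, and DESeq2 called that 1 gene lower. Cxcl5 held 3104, 4748, 6644 and 2828 CPM in vehicle replicates 1 to 4 and 2504, 1464, 2636 and 1836 CPM in S1P replicates 5 to 8. Every S1P library was below every vehicle library, and the closest pair was vehicle replicate 4 and S1P replicate 7. The means were 4331 ± 1759 and 2110.0 ± 555 CPM (n = 4 each, ± SD; log2 fold change -1.04, SE 0.30, edgeR adjusted p = 0.0644). Cxcl5 passed the test without vehicle replicate 4 (log2 fold change -1.19, edgeR adjusted p = 0.0287), with a surrogate variable (edgeR adjusted p = 0.0211) and in DESeq2 (adjusted p = 0.00649). It also passed with vehicle replicate 4 and S1P replicate 5 both left out (log2 fold change -1.29, edgeR adjusted p = 0.0333). In the other 12 alternatives Cxcl5 was not called (edgeR adjusted p of up to 0.184).

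Cxcl1 held 1324, 1087, 1609 and 834 CPM in vehicle replicates 1 to 4 and 1161, 653, 880.2 and 619 CPM in S1P replicates 5 to 8. The groups overlapped, with S1P replicate 5 above vehicle replicates 2 and 4 and S1P replicate 7 above vehicle replicate 4 (log2 fold change -0.55, SE 0.25, edgeR adjusted p = 0.214). Cxcl1 passed the test only with vehicle replicate 4 and S1P replicate 5 both left out (log2 fold change -0.90, edgeR adjusted p = 0.0165). Cxcl2, whose promoter window carries the same stretch in capitals as that of Cxcl1, had a far lower level, 1.69 ± 1.27 CPM per kb in vehicle against the 647 ± 177 of Cxcl1 (n = 4 each, ± SD). It held 1.07, 3.41, 7.18 and 2.32 CPM in vehicle and 3.39, 5.23, 4.99 and 3.66 CPM after S1P. Its S1P libraries all lay inside the wide range of its vehicle libraries, in which replicate 1 was low and replicate 3 high (log2 fold change 0.31, SE 0.49, edgeR adjusted p = 0.718). Cxcl15, a ligand known from lung epithelium, stayed between 1.59 and 2.57 CPM in all 8 libraries (log2 fold change -0.11). Cxcl3, which lies between Cxcl5 and Cxcl15, was at 0 in all 4 vehicle libraries and had 1, 1, 1 and 0 counts after S1P, all under the limit that a count of 0 allows. Their receptor Cxcr2 had 1 count, in vehicle replicate 1.

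Interferon-inducible CXC ligands recruit activated T cells through the receptor Cxcr3. Cxcl9 held 4.40, 8.01, 18.9 and 2.83 CPM in vehicle replicates 1 to 4 and 3.97, 1.38, 3.60 and 2.30 CPM in S1P replicates 5 to 8. Vehicle replicate 3 was high and the groups overlapped (log2 fold change -1.60, SE 0.59, edgeR adjusted p = 0.129). Its log2 fold change was -0.85 without vehicle replicate 3, and it was called lower with DESeq2 (adjusted p = 0.0322) and with a surrogate variable (edgeR adjusted p = 0.0437). Cxcl10 held 6.96, 9.27, 22.4 and 6.61 CPM in vehicle and 10.4, 4.29, 9.62 and 4.67 CPM after S1P. Here too vehicle replicate 3 was high, and the log2 fold change of -0.64 (SE 0.46, edgeR adjusted p = 0.411) was -0.07 without that library. Cxcl11, the remaining member, had 4, 10, 16 and 4 counts in vehicle and 2, 2, 6 and 2 after S1P, too few for the test. The spans of Cxcl10 and Cxcl11 lie inside that of Art3, which was at 0.0914 CPM on average.

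Among the homeostatic CXC ligands only Cxcl12 had counts to test. Cxcl12, the ligand that retains blood progenitors in bone marrow, held 1395, 1544, 2939 and 1480.2 CPM in vehicle and 1813, 1158, 2055 and 1379.9 CPM after S1P. Vehicle replicate 3 was again the highest of all 8 libraries, while the other 3 vehicle libraries lay inside the S1P range (log2 fold change -0.20, SE 0.28, edgeR adjusted p = 0.675). Without vehicle replicate 3 the sign turned, to a log2 fold change of 0.12. Cxcl13 and Cxcl17 had at most 1 count in a library.

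Cx3cl1 and Cxcl16 are made as membrane-bound proteins that sheddases release. Cx3cl1, also called fractalkine, held 215, 209.6, 212 and 272 CPM in vehicle and 179, 190.0, 189 and 168 CPM after S1P. Every S1P library was below every vehicle library, and vehicle replicate 4 was the high one. The difference was small, with a log2 fold change of -0.33 (SE 0.12, edgeR adjusted p = 0.12), and passed the test only with a surrogate variable (-0.27, edgeR adjusted p = 0.0308). Cxcl16 held 7.10, 13.9, 29.0 and 13.1 CPM in vehicle and 6.64, 7.85, 11.4 and 7.83 CPM after S1P. Vehicle replicate 1 lay inside the S1P range and vehicle replicate 3 far above it (log2 fold change -0.91, SE 0.39, edgeR adjusted p = 0.184), and the log2 fold change was -0.44 without that library. The span of Cxcl16 shares 145 bases with Med11 and 952 with Zmynd15, so its level is uncertain by the reads that fall there.

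Ccl2, Ccl7, Ccl8 and Ccl11 are neighbours on chromosome 11 and attract monocytes and, in the case of Ccl11, also called eotaxin, eosinophils. Ccl11 (chromosome 11, 81871125 to 81876657 in mm9) held 1.14, 2.67, 4.44 and 1.53 CPM in vehicle replicates 1 to 4 and 0.289, 0.436, 0.734 and 0.575 CPM in S1P replicates 5 to 8. Every S1P library was below every vehicle library. It fell 4.74-fold, the means being 2.44 ± 1.48 CPM with vehicle and 0.509 ± 0.191 CPM with S1P (n = 4 each, ± SD; log2 fold change -2.24, SE 0.50, edgeR adjusted p = 0.0243), on 16 to 60 counts in a vehicle library and 4 to 10 in an S1P library. The call was lost without vehicle replicate 2 or S1P replicate 5, 6 or 8 (edgeR adjusted p of up to 0.087), and the log2 fold change stayed between -2.50 and -1.79 with any 1 library left out.

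Ccl2, the main monocyte attractant, held 2492, 2058, 2875 and 1773 CPM in vehicle and 2848, 1377, 1843 and 1465 CPM after S1P. S1P replicate 5 lay just below the highest vehicle library, and the other 3 S1P libraries lay near or below the lowest (log2 fold change -0.29, SE 0.25, edgeR adjusted p = 0.499). It passed the test once vehicle replicate 4 and S1P replicate 5 were both left out, with a log2 fold change of -0.66 (edgeR adjusted p = 0.0327). Ccl7, a related monocyte attractant, held 349, 485, 637 and 284 CPM in vehicle and 343, 257, 346 and 230.2 CPM after S1P (log2 fold change -0.58, SE 0.25, edgeR adjusted p = 0.196). Its groups overlapped through vehicle replicate 4. Ccl8 had 6, 9, 32 and 7 counts in vehicle and 3, 2, 4 and 2 after S1P, so that all S1P libraries were below all vehicle libraries, but these counts did not pass the filter. DESeq2, which has its own filter, called it lower (log2 fold change -2.33, adjusted p = 0.0356), and edgeR without a count filter did not (log2 fold change -2.25, adjusted p = 0.0743).

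The MIP-type CC ligands attract monocytes, T cells and, in the case of Ccl20, cells with the receptor Ccr6. Ccl5, also called RANTES (chromosome 11, 83339080 to 83344220 in mm9), held 23.4, 46.6, 74.0 and 29.1 CPM in vehicle and 15.1, 15.1, 21.6 and 14.2 CPM after S1P. The S1P libraries were close together and all below the vehicle libraries, which spread widely and were highest in replicate 3. Ccl5 fell 2.62-fold, with means of 43.3 ± 22.7 and 16.5 ± 3.43 CPM (n = 4 each, ± SD; log2 fold change -1.39, SE 0.34, edgeR adjusted p = 0.0362). With 1 library left out the call held only when that was vehicle replicate 1 or 4, and the 6 other omissions gave an edgeR adjusted p of 0.0528 to 0.116. It was also lost with limma-voom (adjusted p = 0.057).

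Ccl20 had the highest log2 fold change of the 20 genes and was not called. It held 13.6, 64.3, 83.9 and 32.0 CPM in vehicle and 53.8, 111, 118.8 and 84.4 CPM after S1P. Vehicle replicate 1 was low, and S1P replicate 5 lay among the vehicle libraries (log2 fold change 0.93, SE 0.48, edgeR adjusted p = 0.27). With 1 library left out its log2 fold change ran from 0.59 without vehicle replicate 1 to 1.33 without vehicle replicate 3.

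Ccl9 and Ccl3 varied widely within both groups. Ccl9 held 162, 119.8, 231 and 74.2 CPM in vehicle and 265, 80.2, 146 and 97.1 CPM after S1P, so that the group means were equal at 147 ± 66.7 and 147 ± 83.3 CPM (n = 4 each, ± SD; log2 fold change 0.0014, SE 0.42). Ccl3, or MIP-1 alpha, held 3.13, 2.45, 6.14 and 1.89 CPM in vehicle and 5.78, 1.24, 2.20 and 0.79 CPM after S1P (log2 fold change -0.44, SE 0.61, and 0.0076 without vehicle replicate 3). Both genes were highest in vehicle replicate 3 and S1P replicate 5. Ccl6 held 1.70, 1.48, 1.48 and 0.726 CPM in vehicle and 0.578, 0.363, 1.03 and 0.575 CPM after S1P (log2 fold change -1.08, SE 0.40, edgeR adjusted p = 0.133). The whole span of Ccl6 lies within that of E230016K23Rik, itself at 3.97 CPM on average, so its counts are uncertain. Ccl4 had 3 counts or fewer in every library.

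Among ligands of lymphoid and epithelial tissue, 2 of the 5 present were tested. Ccl25, a thymus and gut ligand, was at 4.02 ± 0.773 CPM in vehicle and 4.44 ± 0.244 CPM after S1P (n = 4 each, ± SD; log2 fold change 0.15), and 291 bases of its span are shared with the abundant gene Elavl1. Ccl17, a ligand of Ccr4, a chemokine receptor found on T cells, was at 1.37 ± 0.265 and 1.62 ± 0.5 CPM (n = 4 each, ± SD; log2 fold change 0.24). The groups overlapped in both. Ccl1, Ccl22 and Ccl27a had at most 2 counts in a library.

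Receptors were nearly silent, with 1 exception. Cxcr7, named Ackr3 in RefSeq, is an atypical receptor that takes up and removes Cxcl12 without Gi signalling. It held 49.9, 69.7, 85.98 and 66.0 CPM in vehicle and 29.7, 35.8, 53.7 and 37.9 CPM after S1P. Only S1P replicate 7 lay above the lowest vehicle library, replicate 1. The means were 67.9 ± 14.8 and 39.3 ± 10.2 CPM (n = 4 each, ± SD; log2 fold change -0.79, SE 0.21, edgeR adjusted p = 0.0511). That p is just outside the threshold, and Cxcr7 was called lower with RLE factors, with no composition factors, with no count filter, with limma-voom, with a surrogate variable, with DESeq2 and without vehicle replicate 1 or S1P replicate 7 (adjusted p of 0.00832 to 0.0491), and not in the other 8 alternatives (edgeR adjusted p of up to 0.156).

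Cxcr4, the signalling receptor of Cxcl12, had 1, 1, 8 and 2 counts in vehicle and 2, 8, 6 and 8 after S1P, which is 12 and 24 counts over the 4 libraries of each group. Its groups overlapped. The remaining receptors with a row, Cxcr2, Cxcr6, Cx3cr1, Ccr7 and Ccr10, had at most 3 counts in any library. The span of Ccr10 lies inside Cntnap1 and that of Cxcr6 inside Fyco1, so even these few counts are uncertain. Here and above, overlaps of spans were taken from coordinates without regard to strand. Members of the CC receptor list had a row for 2 of 11 symbols, and the others are not analysed here.

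The genes with few counts, 15 in all, ranged from a sum of 1 count over the 8 libraries to the 65 of Ccl8. Only Ccl8, Cxcl11 and Cxcr4 reached a sum of 10, and the remaining 12 had at most 3 counts in any library and at most 8 in all.

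By the mm9 coordinates of the deposited table, 21 of the 35 genes lie in 5 clusters. On chromosome 11, Ccl2, Ccl7, Ccl11, Ccl8 and Ccl1 span 271 kb (81848873 to 82119392), and the log2 fold changes of the 3 tested ones ran from -2.24 for Ccl11 to -0.29 for Ccl2. Ccl5, Ccl9, Ccl6, Ccl3 and Ccl4 span 139 kb on the same chromosome (83339080 to 83478385), where the 4 tested genes ran from -1.39 for Ccl5 to 0.0014 for Ccl9. The cluster of Cxcl5, Cxcl3, Cxcl15, Cxcl1 and Cxcl2 on chromosome 5 spans 147 kb (91188125 to 91335135) and ran from -1.04 for Cxcl5 to 0.31 for Cxcl2. Cxcl9, Cxcl10 and Cxcl11 span 44.6 kb further along chromosome 5, and both tested genes had negative values, -1.60 and -0.64. Ccl22, Cx3cl1 and Ccl17 span 66.8 kb on chromosome 8, with values of -0.33 for Cx3cl1 and 0.24 for Ccl17. Differences between neighbours were not tested.

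**Figure D3:**
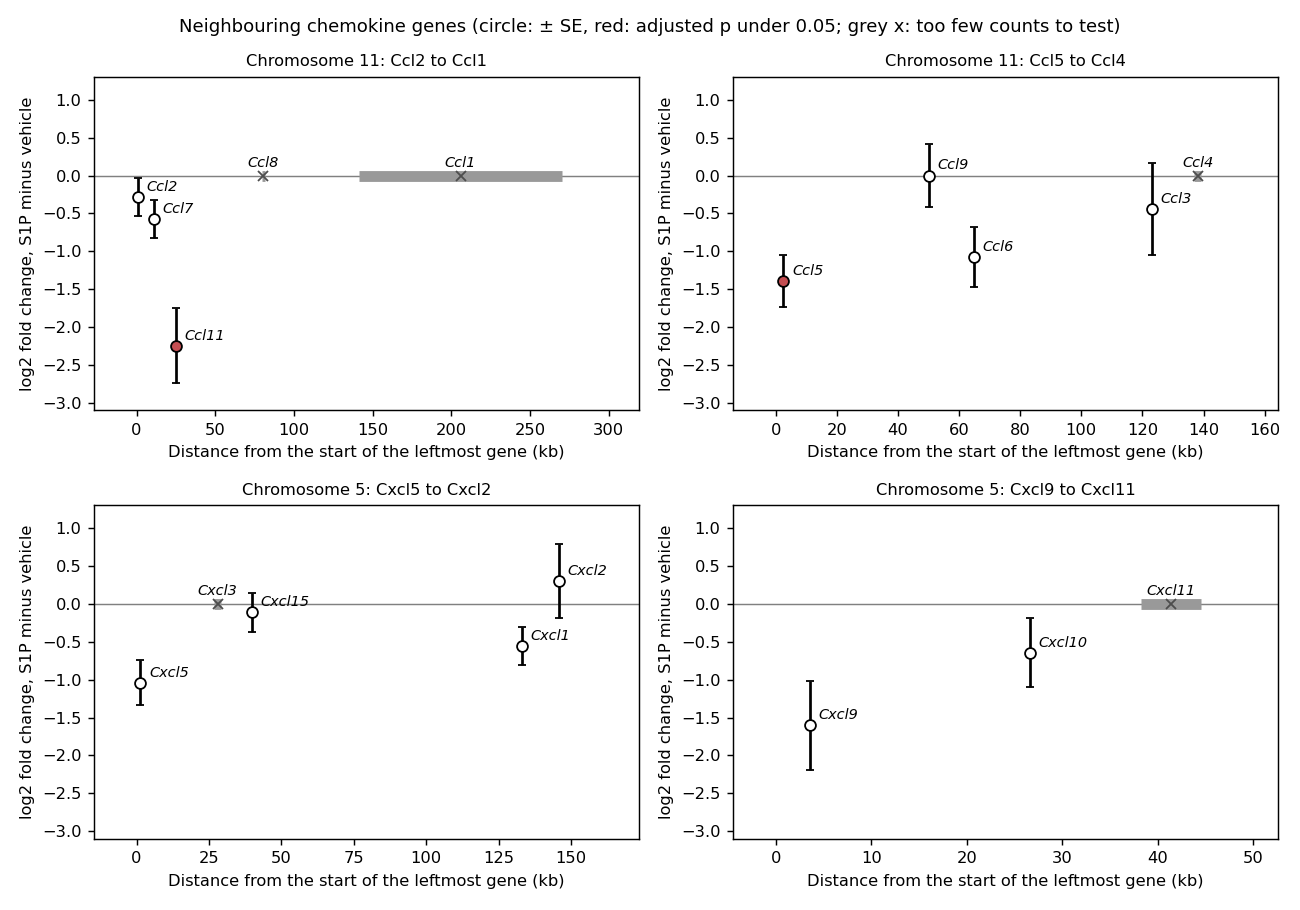
Log2 fold change (S1P minus vehicle, bar ± SE) against distance from the leftmost gene (kb) in 4 clusters, with red points for an adjusted p under 0.05 and grey crosses for genes with too few counts, drawn at 0 with their span. Ccl11 at -2.24 lies beside Ccl2 at -0.29 and Ccl7 at -0.58, and Cxcl1 at -0.55 beside Cxcl2 at 0.31.

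Vehicle replicate 3 was the highest vehicle library for 17 of the 20 tested genes, all but Ccl6, Cx3cl1 and Ccl17, whereas over all tested genes it was the highest for 23.5%. S1P replicate 5 was the highest S1P library for 6 of the 20, near its share of 32.8% of all tested genes. The median coefficient of variation of the 20 genes was 40.3% in vehicle and 28.3% after S1P. Without vehicle replicate 3 the median log2 fold change of the 20 was -0.25 in place of -0.50, and 13 of the 20 were negative. In edgeR 1 gene was then called lower (Ccl11) and none higher, and 6 were lower and 2 higher at an unadjusted p under 0.05. Of the 11933 genes tested without this library, 286 (2.4%) were called lower and 582 higher, with a median log2 fold change of -0.04. The shares of all genes by sign and by unadjusted p were not computed for this omission. Among genes not called, Ccl2 moved from -0.29 to -0.16, Ccl7 from -0.58 to -0.34 and Cxcl2 from 0.31 to 0.93 without vehicle replicate 3.

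**Figure D4:**
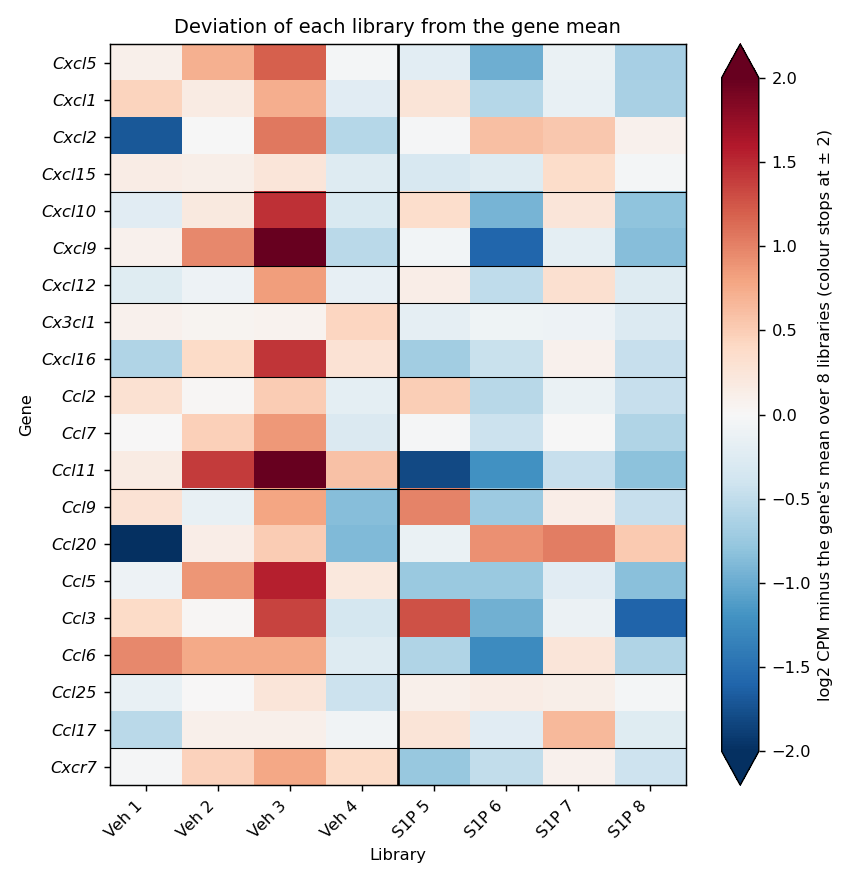
Log2 CPM of each tested gene in each library minus the gene's mean over the 8 libraries (red above, blue below, colour stops at ± 2; the vertical line parts vehicle from S1P). Vehicle replicate 3 is the highest vehicle library for 17 of the 20 genes, Ccl20 and Cxcl2 are lowest in vehicle replicate 1, and Ccl3 and Ccl9 are high in S1P replicate 5.

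**Figure D5:**
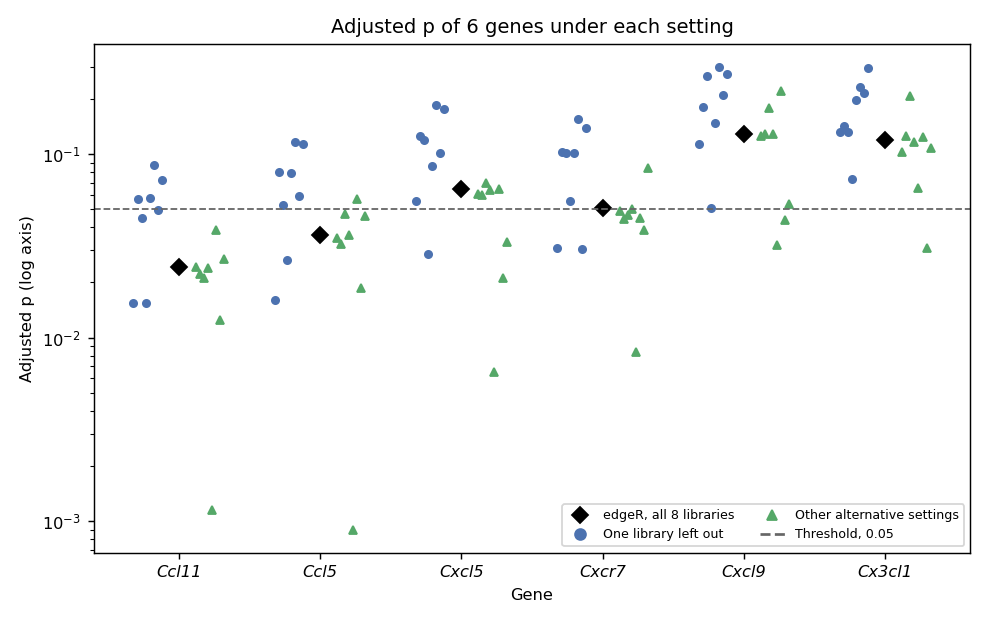
Adjusted p (log axis) of the 6 genes with the lowest values in edgeR over all 8 libraries (diamonds), with 1 library left out (circles, left) and under the other alternative settings (triangles, right); the dashed line is the threshold of 0.05. Ccl11 and Ccl5 cross the line when certain libraries are left out, and Cxcr7 lies on it at 0.0511.

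Around the ligands and receptors, lists of genes that act with them gave the following counts, to be read beside the shares of all tested genes. With edgeR 2.9% fell and 5.6% rose, at an unadjusted p under 0.05 there were 11.7% lower and 13.2% higher, and with DESeq2 6.01% were called lower and 7.09% higher. With limma-voom 2.87% were called lower. Of 25 genes for shedding, cleavage and presentation of chemokines, 19 were tested, 5 fell and none rose, with a median log2 fold change of -0.44. At an unadjusted p under 0.05 there were 9 lower and 1 higher in edgeR. Of the 20 genes of this list to which DESeq2 gave an adjusted p, it called 8 lower and 1 higher. The gelatinase Mmp9 fell, with means of 18.6 ± 7.30 CPM in vehicle and 2.12 ± 0.871 CPM after S1P (n = 4 each, ± SD; log2 fold change -3.13, SE 0.40, edgeR adjusted p = 0.00321). Anpep, an aminopeptidase that trims peptides at their N terminus, fell from 46.9 ± 14.2 to 17.5 ± 2.94 CPM (log2 fold change -1.42, edgeR adjusted p = 0.00699), and the heparan sulphate carrier Sdc3 from 157 ± 18.2 to 85.7 ± 13.5 CPM (log2 fold change -0.87, edgeR adjusted p = 0.00697). These 3 genes remained called with any 1 library left out. Mmp14 and Mmp2, outside the naming rule and chosen after their values were seen, also fell (log2 fold change -0.81 and -0.60) and lost the call without S1P replicate 6 or 8 (edgeR adjusted p of up to 0.058).

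All 36 genes on the list of inflammatory receptors and transcription factors that act on chemokine genes were tested, and 4 fell and none rose, with a median log2 fold change of -0.41 and, at an unadjusted p under 0.05 in edgeR, 18 lower and 1 higher, and with DESeq2 11 lower and 0 higher. The interleukin 6 receptor chain Il6ra fell from 18.8 ± 2.61 to 11.1 ± 2.51 CPM, the toll-like receptor Tlr2 from 383 ± 98.1 to 228 ± 33.2 CPM and the interleukin 17 receptor chain Il17ra from 52.1 ± 5.97 to 36.1 ± 5.01 CPM (n = 4 each, ± SD). Their log2 fold changes were -0.76, -0.75 and -0.53 (edgeR adjusted p = 0.0432, 0.0423 and 0.0442). The interferon receptor chain Ifnar1, outside the naming rule and chosen after its value was seen, was the other one (log2 fold change -0.41). The 4 calls were all lost when S1P replicate 6, 7 or 8 was left out. Leaving out vehicle replicate 2 or 3 gave 1 gene called lower, vehicle replicate 1 gave 3, S1P replicate 5 gave 6 and vehicle replicate 4 gave 12, and there were 16 with vehicle replicate 4 and S1P replicate 5 both left out. The share of all tested genes called lower was 2.9% over all 8 libraries and 2.87% without S1P replicate 5. Omitting vehicle replicate 1, 2 or 3 gave 2.59%, 1.98% or 2.4%. Omitting S1P replicate 6, 7 or 8 gave 0.845%, 1.26% or 0.904%, omitting vehicle replicate 4 gave 6.05%, and there were 7.87% with vehicle replicate 4 and S1P replicate 5 both left out.

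Of 32 genes of receptor signalling, 21 were tested, and the only one called in edgeR was Rgs4, a Gi inhibitor chosen after its value was seen, which rose, with means of 62.7 ± 16.3 and 131 ± 22.3 CPM (n = 4 each, ± SD; log2 fold change 1.06, SE 0.20, edgeR adjusted p = 0.0121) and remained called with any 1 library left out. At an unadjusted p under 0.05 in edgeR, 3 of the 21 were lower and 1 higher. DESeq2 gave an adjusted p to 24 of the list and called 1 lower and 1 higher. The most abundant of them were the GTPase Rac1 and the G protein subunit Gnb1, with log2 fold changes of 0.21 and -0.02. Among 19 other chemokine-system symbols 6 were tested. At an unadjusted p under 0.05 in edgeR, 2 of these 6 were lower and 2 higher. DESeq2 gave an adjusted p to 7 of the list and called 2 lower and none higher. Cd74, the MHC class II invariant chain that also binds the cytokine Mif, was the only one called in edgeR. It fell from 38.7 ± 13.1 to 14.3 ± 1.62 CPM (log2 fold change -1.43, SE 0.24, edgeR adjusted p = 0.00775), again with any 1 library left out. Mif itself was at 53.0 ± 61.6 and 34.0 ± 7.50 CPM (n = 4 each, ± SD), with 145 CPM in vehicle replicate 4 and 15.8 to 29.9 CPM in the other 3. Of the 9 tested genes for decay of chemokine mRNA, none passed the edgeR test, 3 were lower and 1 higher at an unadjusted p under 0.05, and DESeq2 and limma-voom each called 1 lower. The most abundant were Zfp36l2, at 177 ± 30.0 and 193 ± 28.9 CPM, and Hnrnpd, at 145 ± 28.5 and 199 ± 14.2 CPM (n = 4 each, ± SD; log2 fold change 0.13 and 0.46). Hnrnpd was the 1 higher, and edgeR called it with a surrogate variable (adjusted p = 0.0259) and without vehicle replicate 3 (adjusted p = 0.0297) only. The 3 lower, chosen after their values were seen, were Zfp36, Zc3h12a and Zfp36l1 (log2 fold change -0.60, -0.77 and -0.54, edgeR adjusted p = 0.0517, 0.15 and 0.119). Zc3h12a held 133, 131, 127 and 288 CPM in vehicle replicates 1 to 4 and 140, 94.0, 87.5 and 78.5 CPM in S1P replicates 5 to 8. Its vehicle replicate 4 was high, and S1P replicate 5 lay above the other vehicle libraries.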

How the data were processed

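RNA sequencing counts were used for 8 libraries of C3H10T1/2 cells, 4 with vehicle and 4 with S1P. The deposited values are whole-number counts per Ensembl gene with symbols and mm9 coordinates, and columns were assigned to samples through the titles. STAR 2.5.3a and the build mm9 are named in the submitters' processing notes. Which counting tool and annotation were used is not given in the sources used here. Column totals are nearly equal, as after a reduction to 1 size, and the original depth is unknown.

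The filter was filterByExpr at its minimum count of 10 (edgeR 4.0.16, R 4.3.3) and kept 11844 of 18306 genes. S1P was tested against vehicle with TMM factors and edgeR's robust quasi-likelihood test, treatment as the only term, Benjamini-Hochberg adjusted over all tested genes, threshold 0.05. The SE of a log2 fold change came from the F statistic. Alternatives were RLE or no factors, no filter or at least 1 CPM in 4 libraries, DESeq2 1.42.0, limma-voom (limma 3.58.1), 1 surrogate variable from sva 3.50.0, and leaving out libraries. The genes and lists were chosen with earlier results of these data known. Every tested gene of the family is named, and untested ones with a sum of at least 10 counts. Of each other list, up to 3 called genes with the largest change are named, or the 2 most abundant where fewer than 2 were called.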

Additional observations from a re-analysis of the deposited data

Results flagged for a closer look

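In each group of 4, the highest or lowest library was compared with the others. This was done for the 20 tested genes and for 21 of the genes named from the other lists. Named genes outside these 21 include Col3a1, Pdgfra, S100a4, Twist1, Zfp36, Zc3h12a and Zfp36l1. Of these, Zc3h12a was at 288 CPM in vehicle replicate 4 and at 127 to 133 CPM in the other vehicle libraries. A library counted as standing apart where its gap to the next, divided by the range of the group, was above Dixon's 95% critical value, which chance gives in about 1 of 20 groups. This held in 4 of the 40 groups of chemokine and receptor genes and in 5 of 82 groups in all. Cxcl12 was at 2939 CPM in vehicle replicate 3, where the other vehicle libraries had 1395 to 1544 CPM. Cxcl10 was at 22.4 CPM in the same library, against 6.61 to 9.27 CPM. Cx3cl1 was at 272 CPM in vehicle replicate 4, against 209.6 to 215 CPM. Ccl5 was at 21.6 CPM in S1P replicate 7, against 14.2 to 15.1 CPM in the other S1P libraries. Outside the family, Mif was at 145 CPM in vehicle replicate 4, against 15.8 to 29.9 CPM.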

How the results depend on the processing

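The count of chemokine and receptor genes called lower was 2 of 20 in edgeR over all 8 libraries, 6 of 23 with DESeq2, 7 with a surrogate variable and 5 with vehicle replicate 4 and S1P replicate 5 both left out, and ran from 0 to 4 with 1 library left out. Leaving out vehicle replicate 2, S1P replicate 5, S1P replicate 6 or S1P replicate 8 gave 0, vehicle replicate 3 gave 1 and vehicle replicate 4 gave 4. Of all tested genes, 2.9% were lower in edgeR, 6.01% with DESeq2, 8.49% with a surrogate variable and 6.05% without vehicle replicate 4. With vehicle replicate 4 and S1P replicate 5 both left out the share was 7.87%. It was 1.98% or 2.4% without vehicle replicate 2 or 3, and 2.87%, 0.845% or 0.904% without S1P replicate 5, 6 or 8. In the remaining alternatives 2 or 3 chemokine and receptor genes were called lower, beside 1.26% to 3.17% of all tested genes. The count of chemokine and receptor genes called higher was 0 in all 16. Over all tested genes, calls were 663 higher and 344 lower in edgeR, 941 and 797 with DESeq2 and 1459 and 1005 with a surrogate variable. Of the 320 log2 fold changes of the 20 genes under an alternative, 278 kept their direction and side of the threshold, 19 passed it newly, 11 no longer did and 12 changed sign. Ccl9, near 0, turned to -0.0227 with RLE factors, -0.00097 with the stricter filter, -0.0148 with DESeq2, -0.0372 with limma-voom, -0.0824 with a surrogate variable and -0.67 with vehicle replicate 4 and S1P replicate 5 both left out, and ran from -0.45 to 0.31 with 1 library left out. Leaving out 1 library gave ranges of -1.26 to 0.0076 for Ccl3, -0.34 to 0.12 for Cxcl12 and -0.0175 to 0.93 for Cxcl2. Among genes of the other lists, leaving out 1 library gave -0.98 to 0.61 for Mif, -0.26 to 0.16 for Cdh1, -0.0889 to 0.20 for Col1a2 and -0.0424 to 0.0180 for Gnb1. Mif was at 0.29 with a surrogate variable and 0.45 with vehicle replicate 4 and S1P replicate 5 both left out, where Zfp36l2 was at -0.0765 and Cdh1 at 0.13. Cdh1 was also at 0.0044 with limma-voom and 0.0972 with a surrogate variable. The cause of these changes was not tested. No paired analysis was possible because the vehicle and S1P libraries share no replicate number. Depth limits the 15 untested genes most, since a count of 0 allows up to 0.213 to 0.223 CPM.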
